A study of Mus musculus with 28 samples.

Results

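The genes described here are 10 transcription factors of the AP-1 and immediate early class, namely Fos, Fosb, Fosl1, Fosl2, Jun, Junb, Jund, Atf3, Egr1 and Myc. They were taken by symbol, 10 of the 35858 gene symbols in the liver and pancreas data of set 2 and 10 of the 24845 gene rows in the liver and lung data of set 1. RNA-seq covered 28 samples from mice that express human APOBEC3B (A3B), an enzyme that turns cytosine into uracil in single-stranded nucleic acid. Set 2 held livers of 6 A3B mice and 2 controls and pancreases of 6 A3B mice and 2 controls. Set 1 held livers of 3 A3B mice and 3 controls and lungs of 3 A3B mice and 3 controls.

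A3B mice carried the human A3B cDNA fused to tGFP behind a tetracycline-responsive promoter at the Col1a1 locus, together with the CAGs-rtTA3 driver, which switches that promoter on when doxycycline is eaten. The CAGs promoter is active in most tissues, so induction was not restricted to a cell type. All mice started at 4 weeks of age, and the diet held 625 ppm doxycycline. Per the labels every mouse of set 2, controls included, was on the diet for 10 days, and in set 1 A3B livers 23 and 28 came from mice treated for 14 days, the other A3B samples for 10 days and the controls for 15 days. The mouse list of the study instead gives 0 days for controls 11, 88, 91 and 92 and 11 days for control 87, and the study elsewhere describes its control pair for liver and pancreas as without doxycycline. Controls had the A3B transgene but no driver, except that the label of lung control 87 gives the driver alone. Groups were taken from the sample titles, which the genotype labels contradict for 5 samples. A3B pancreases 44 and 137 carry a label without the driver. Control pancreases 45 and 168 and set 1 control liver 11 carry the label of both transgenes. By their numbers, liver and pancreas came from the same animal for mice 44, 49, 125, 137, 153, 45 and 168, and liver and lung for mice 70 and 91.

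Summed estimated counts lay between 65161064 and 118976013 per sample in set 2, and the depth of set 1 is unknown because only TPM (a level per length of transcript, scaled to the same total in each sample) was given. The A3B transgene was listed at 705 to 1705 TPM in A3B livers and 90.6 to 281 TPM in A3B lungs of set 1, and at 0.0929 to 0.526 TPM in the 6 controls. Hepatocyte markers summed to 34408 TPM or more in every liver of set 2, acinar markers to 64868 TPM or more in every pancreas and alveolar markers to 12894 TPM or more in every lung. The lowest sums in liver and pancreas were in A3B mice, and the controls there held at least 94780 and 379700 TPM. In set 1 livers alveolar markers summed to 260 to 1938 TPM, of which Abca3 alone, a lipid transporter, gave 234 to 1914 TPM. Fewer cells of a type and less RNA per cell cannot be told apart in these bulk samples.

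AP-1 is a dimer of basic leucine zipper proteins. A Jun protein (Jun, Junb, Jund) pairs with itself, with a Fos protein (Fos, Fosb, Fosl1, Fosl2) or with a related protein such as Atf3, and the dimers bind TRE and CRE sequences in promoters and enhancers. Fos, Jun, Egr1 and Myc are textbook immediate early genes: growth factor, cytokine and stress kinases reach factors already bound at their promoters, so that transcription starts without new protein, and their mRNAs are short-lived. In liver, Jun and Fos rise during regeneration, and in pancreas AP-1 and Egr1 are known to rise in acinar injury. Egr1 is a zinc finger factor, Atf3 a stress-induced repressor and activator, and Myc drives growth and ribosome production as a dimer with Max.

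Promoters of 7 members (Fos, Fosb, Fosl2, Jun, Junb, Jund and Atf3) were read from RefSeq in build GRCm38.p6, from 250 bases before to 50 bases after each listed start. Sequences are shown for the 3 members with a CRE-type match, the kind of site that AP-1 and ATF dimers are known to bind. Both strands were searched. The CRE core TGACGT was in 2 of the 7 promoters, Fos and Atf3, and in 7.51% of all 32851 promoters of that length. The Jun-type site TGACATCA, through which Jun dimers are known to act on the Jun gene, was in Jun and in 3.62% of all promoters. The TRE TGACTCA was in 0 of the 7 and in 5.2% of all. The EGR site was in 2 of the 7, Fosl2 and Fosb, and in 3.47% of all, and the CArG box in 0 of the 7 and in 1.63% of all. Sites more than 250 bases before a start were not searched, and neither were Fosl1, Egr1 and Myc. A count of 0 therefore covers this window of the 7 promoters only. Capitals mark the matched letters in the 30 bases printed, 5′ to 3′ on the strand named.
Fos, chr12:85473812-85473841, plus strand, which is the strand of the gene: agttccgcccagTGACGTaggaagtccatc
Jun, chr4:95052249-95052278, minus strand, which is the strand of the gene: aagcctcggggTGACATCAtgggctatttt
Atf3, chr1:191183324-191183353, plus strand, opposite to the gene: ccaatcccaggcTGACGTaatgctattaat
The Fos match lay 66 to 61 bases before the start, the Jun match 45 to 38 bases and the Atf3 match 8 to 3 bases. In the GENCODE M21 annotation of GRCm38, Fos is at chr12:85473890-85477273, Jun at chr4:95049034-95052222 and Atf3 at chr1:191170296-191218039. The Atf3 match therefore lies inside the annotated gene, at a start downstream of its outermost one. Binding was not measured in these samples.

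In control liver and pancreas of set 2, Fosl1 and Fosb were the lowest members and the order of the others differed. In control livers of set 2, Fosl1 had no counts, Fosb was at 0.0399 and 0.0416 TPM, Atf3 at 0.532 and 0.745 TPM and Fos at 0.668 and 0.827 TPM. The more abundant members there were Jund at 13 and 13.7 TPM and Junb at 12.1 and 13.6 TPM. Egr1 was at 48.1 TPM in control 45 but at 6.28 TPM in control 168, below Myc (11.6 TPM) and Jun (7.09 TPM). In control pancreases Myc was the highest member, at 10.4 and 12.6 TPM, and the others did not exceed 4.68 TPM. Within set 1, control lungs held Jun at 1477 to 2052 TPM, Junb at 269 to 288 TPM and Fos at 114 to 322 TPM, all above the control livers of that set at 47 to 103, 71.4 to 92.8 and 2.87 to 6.29 TPM, and Fosl1 was the lowest member in those lungs at 0.314 to 0.449 TPM. The TPM values of the sets were normalised separately, so levels were compared only within a set.

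The first comparison asked which members differed between A3B and control pancreas, and most of them were higher. Of 10 members tested, 7 rose and 0 fell in edgeR's quasi-likelihood test at an adjusted p under 0.05, in a table where 17.0% of 19123 genes were called higher. Fos, Fosl1, Fosl2, Jun, Junb, Atf3 and Egr1 rose, and Fosb, Jund and Myc did not pass. The same 7 were higher in all 6 A3B pancreases than in both controls on the TMM scale (a rescaling to the bulk of genes), as were 25.1% of all genes tested. The median log2 fold change was 2.06 over the members and 0.09 over all genes tested.

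Among the Fos proteins, Fos itself was at 0.124 TPM in control pancreas 45 and 1.67 TPM in control 168, against 9.94 to 28.2 TPM in A3B pancreases with a median of 17.5. Even the lowest A3B pancreas stood well above the higher control. The log2 fold change was 2.86 ± 0.58 (SE, edgeR, adjusted p = 0.00527). Fosl1, which encodes Fra-1, had 0 and 1 estimated counts in the controls and 101 to 326 in A3B pancreases. Every A3B pancreas was far above both controls. Pooled over libraries the ratio was 98.5, with an exact 95% interval of 17.6 to 3895 that covers counting error only, and the adjusted p was 0.00136. Fosl2, which encodes Fra-2, was at 0.322 and 1.94 TPM in controls and 13.2 to 26.9 TPM in A3B pancreases, a log2 fold change of 2.21 ± 0.47 (SE, adjusted p = 0.00601). Fosb was at 0.0446 and 0.0933 TPM against 0.292 to 0.865 TPM. It rested on 5 and 27 counts in the controls and did not pass, at 1.05 ± 0.60 (SE, adjusted p = 0.207).

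Junb had the largest change of the Jun proteins. It was at 1.05 TPM in control pancreas 45 and 4.68 TPM in control 168, and at 57.7 to 89.2 TPM in A3B pancreases with a median of 83.1. All A3B values lay within a narrow band well above the controls. Its log2 fold change was 2.77 ± 0.38 (SE, edgeR, adjusted p = 0.000609). Jun was at 3.89 and 2.41 TPM in controls and 36.2 to 55.8 TPM in A3B pancreases, with a log2 fold change of 1.28 ± 0.43 (SE, adjusted p = 0.0419). The call for Jun was lost when any of A3B pancreases 44, 53, 125, 137 or 153 was left out, at adjusted p of 0.0595 to 0.0696, without control 168, at 0.149 with a log2 fold change of 0.64, and without A3B pancreases 44 and 137 together, at 0.102. Without control 45 the log2 fold change was 2.54 and the call held. Jund, the member of the family least dependent on stimulation, was at 3.57 and 2.82 TPM against 25.4 to 43.2 TPM and did not pass at 0.95 ± 0.42 (SE, adjusted p = 0.111).

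Egr1 had the smallest adjusted p of the 10, at 0.237 and 0.958 TPM in controls and 19.3 to 28.4 TPM in A3B pancreases. The 6 A3B values lay close together, far above both controls. The log2 fold change was 3.29 ± 0.29 (SE, adjusted p = 0.000128). Atf3 was at 0.222 and 1.39 TPM against 7.25 to 16.4 TPM, a log2 fold change of 1.91 ± 0.41 (SE, adjusted p = 0.00585). Myc was at 10.4 and 12.6 TPM against 29.2 to 60.4 TPM. On the TMM scale its controls, at 84.8 and 45.2 CPM (counts scaled to library size), lay within or above the A3B range of 31.3 to 71.9 CPM, and its log2 fold change was -0.34 ± 0.34 (SE, adjusted p = 0.466).

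**Figure D1:**
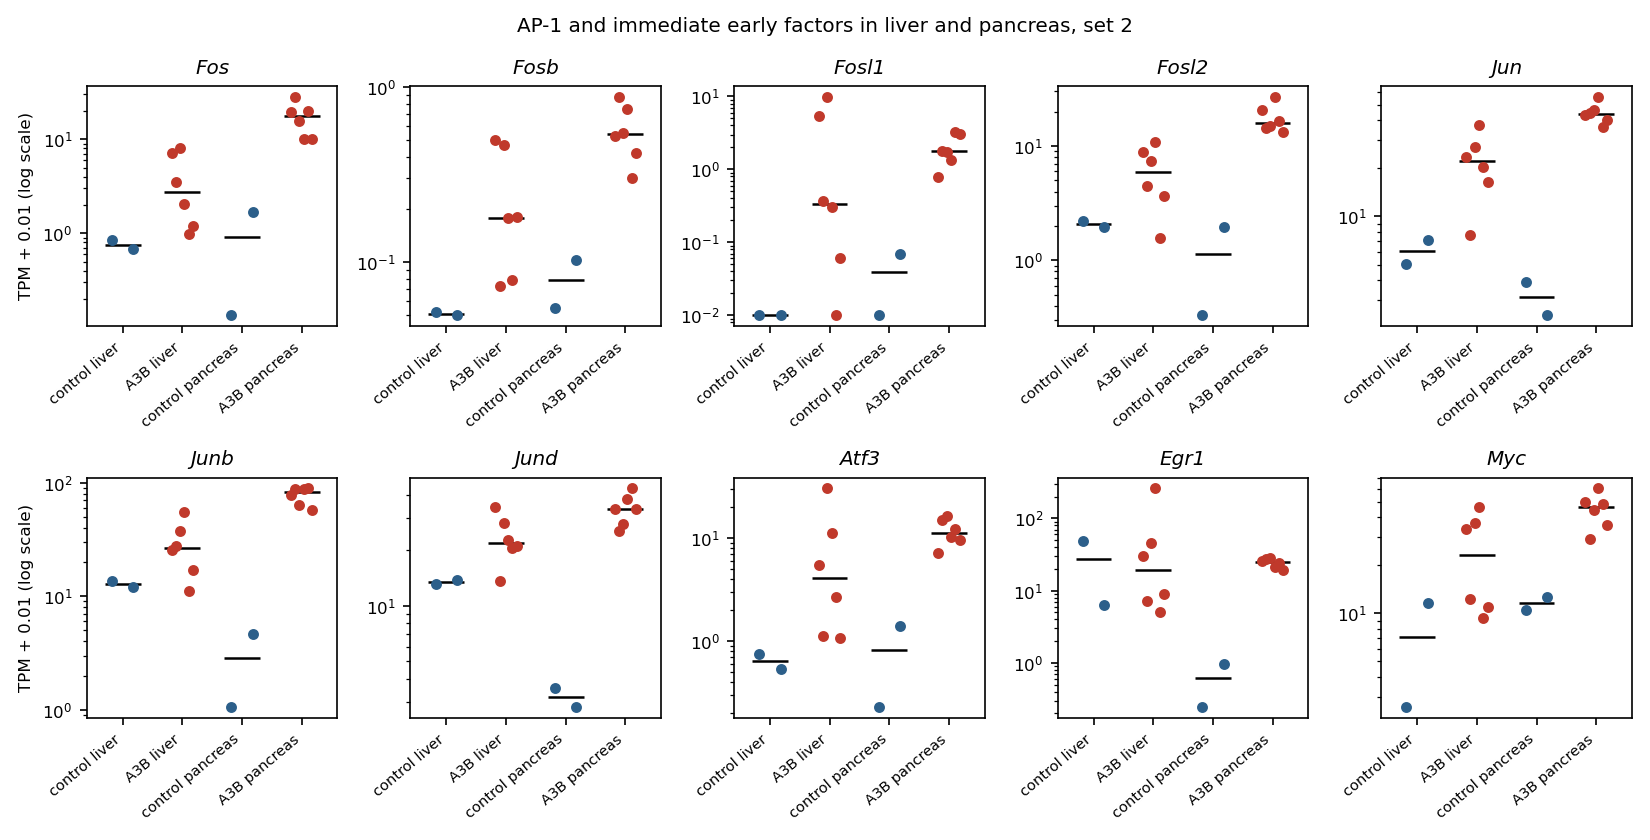
TPM + 0.01 on a log axis for each member in each sample of set 2; points are mice (blue, control; red, A3B) and bars are group medians. On this TPM scale all 6 A3B pancreases are above both control pancreases in every panel, where limma on TPM called 11401 of 13590 genes higher. On the TMM scale such separation held for 7 of 10 members and 25.1% of all genes tested. A3B livers spread widely, from 5.04 to 259 TPM for Egr1.

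How far the members rose in the pancreas depended on the scale, and the make-up of the libraries differed between the groups. The top 10 genes by count made up 62.4% and 59.7% of the counts in control pancreases 45 and 168 and 12.1% to 20.6% in A3B pancreases. TMM factors were 0.21 and 0.443 in the controls and 1.3 to 1.79 in the A3B samples. With library totals alone the median of all genes moved from 0.09 to 2.29, and 10 of 10 members were called higher, as were 70.5% of all genes, Myc included at 1.99 ± 0.34 (SE, adjusted p = 0.000433). Relative to that median, Myc stood at -0.30 with library totals and at -0.44 with TMM, Egr1 at 3.07 and 3.20, and Junb at 2.51 and 2.68. So the order of the members was little affected, while the sign for Myc depended on the scaling. With DESeq2's size factors the 7 of 10 count was the same, against 14.0% of all genes called higher, and Myc was at -0.38 ± 0.40 (SE, adjusted p = 0.474).

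**Figure D2:**
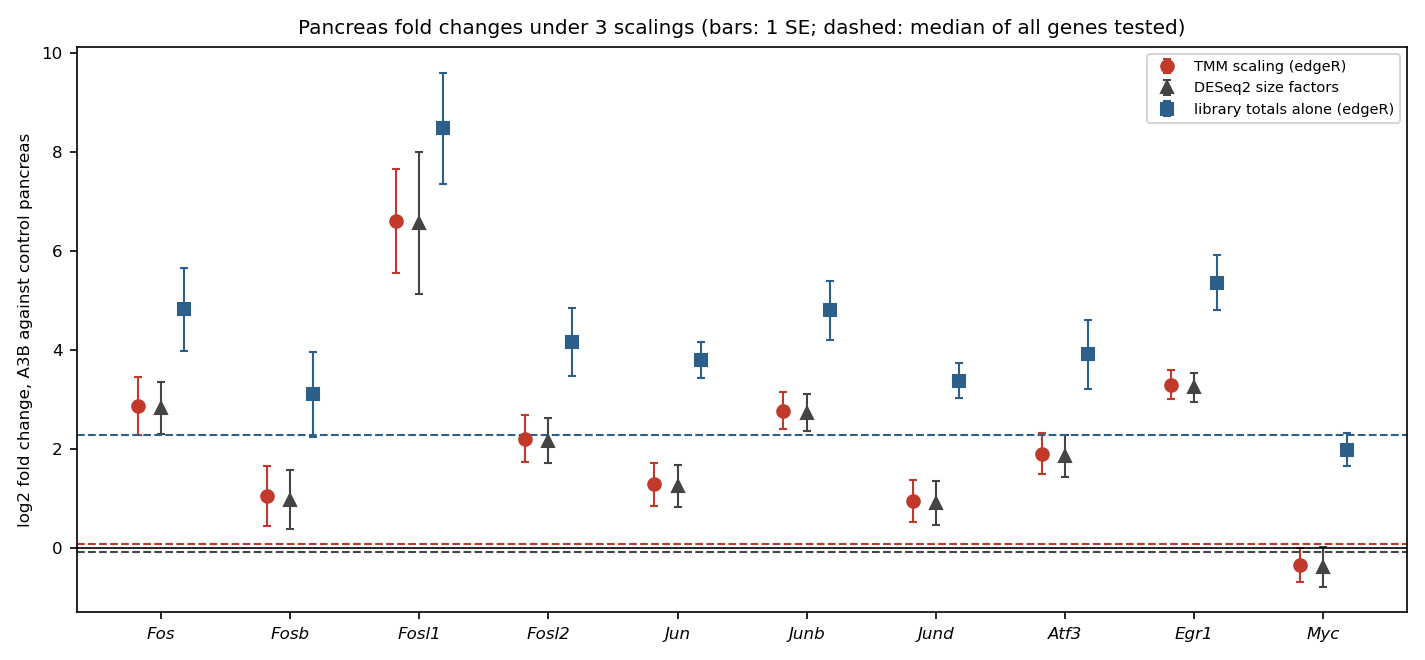
Log2 fold change of each member in the pancreas (A3B against control, bars are 1 SE) under TMM, DESeq2 size factors and library totals alone, with the median of all genes tested as a dashed line in the same colour. Myc lies below the median under each scaling, and Egr1, Junb, Fos and Fosl1 lie well above it.

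Other cell types' markers moved with the members in the pancreas. Macrophage markers rose for 8 of 10 genes, with sums of 46.8 and 540 TPM in controls and 1660 to 4880 TPM in A3B pancreases. Fibroblast markers rose for 7 of 10 (44.7 and 205 TPM against 1027 to 1651 TPM) and ductal markers for 6 of 10 (176 and 249 TPM against 2606 to 5086 TPM). Acinar markers fell for 9 of 10, from 379700 and 385553 TPM to between 64868 and 173379 TPM. Of the neutrophil markers 2 rose and 1 fell, of the endocrine markers 3 fell, of the alveolar markers 2 rose and 1 fell, of the endothelial markers 1 rose, and T cell, B cell, adipocyte and hepatocyte markers had 0 called in edgeR's test. At an unadjusted p under 0.05 there were 2 adipocyte genes and 0 of the T cell, B cell and hepatocyte lists. The endocrine sum in TPM was 3436 and 3512 in controls and 3765 to 13304 in A3B pancreases, higher on that scale although the 3 calls on the TMM scale were lower. The only marker of these lists at 0 in both controls was Mmp8 of the neutrophil list. The part of these cells in the members' rise was not tested.

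The next comparison put A3B against control livers of set 2. All 10 members had a positive log2 fold change, with a median of 1.43 against 0.21 over all genes tested, yet 0 of 10 passed in edgeR's test, in a table where 1.26% of 17365 genes were called higher. That background of 218 genes was 10 without control 45, 3 without control 168 and 655 without A3B liver 49. At an unadjusted p under 0.05 there were 5 members (Fos, Fosl1, Fosl2, Jun and Atf3) and 22.9% of all genes, and DESeq2 called 3 members (Fos, Fosl1 and Atf3) and 5.27% of all genes higher. On the TMM scale the A3B livers were all above both controls for 3 of 10 members (Fos, Fosb and Atf3), against 15.0% of all genes tested.

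A3B livers differed greatly from each other. By TPM, liver 49 was among the upper 3 of the 6 for 10 of 10 members, liver 44 for 9 and liver 125 for 7, while liver 48 was among them for 0 and was the lowest for 6. On the TMM scale these counts were 10, 8 and 8, and liver 48 was among the upper 3 for 2 (Jun and Jund) and the lowest for 4. Atf3 was at 0.745 and 0.532 TPM in controls 45 and 168, and at 30.5 TPM in A3B liver 49, 11.1 in 125, 5.52 in 44, 2.7 in 48, 1.13 in 137 and 1.08 in 153. For Atf3 the highest A3B livers were many times the controls and the lowest were close to them. The log2 fold change of Atf3 was 3.38 ± 1.39 (SE, edgeR, adjusted p = 0.188). Fos was at 0.827 and 0.668 TPM in controls and 0.976 to 8.11 TPM in A3B livers with a median of 2.75, at 1.99 ± 0.78 (SE, adjusted p = 0.167). Fosl2 was at 2.18 and 1.96 TPM against 1.56 to 10.8 TPM, at 1.33 ± 0.52 (SE, adjusted p = 0.168).

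Fosl1 was high in 2 of the 6 A3B livers. It had 0 counts in both controls, which on the TMM scale allows up to 3 counts or 0.0373 CPM in the shallower of them. A3B liver 49 had 788 counts and liver 44 had 545, whereas livers 137 and 125 had 11 each, liver 153 had 1 and liver 48 had 0. Against that limit of 3 counts per library, liver 49 was at least 253-fold higher and liver 44 at least 120-fold, livers 137 and 125 at least 3.43-fold and 3.72-fold, and livers 153 and 48 were under it. The mean of the 6 was at least 63.4-fold higher.

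Jun was at 5.01 and 7.09 TPM in control livers and 7.6 to 37.4 TPM in A3B livers with a median of 22, at 1.48 ± 0.55 (SE, edgeR, adjusted p = 0.148). Only A3B liver 137 lay near the controls, and on the TMM scale it was below control 168 (17.4 against 21.8 CPM). Junb was at 13.6 and 12.1 TPM against 11.1 to 54.9 TPM, and Jund at 13 and 13.7 TPM against 13.7 to 34.1 TPM, so both groups met or overlapped. Their log2 fold changes were 0.80 ± 0.52 and 0.41 ± 0.29 (SE), with adjusted p of 0.383 and 0.43. Egr1 was at 48.1 TPM in control 45 and 6.28 TPM in control 168, and at 5.04 to 259 TPM in A3B livers, where 259 was liver 125 alone and the next was 44.8. Its log2 fold change was 0.89 ± 1.57 (SE, adjusted p = 0.775), and it was -0.97 without A3B liver 125, 2.69 without control 45 and 0.01 without control 168. Myc was at 2.59 and 11.6 TPM in controls and 9.27 to 46.3 TPM in A3B livers, with livers 44, 49 and 125 well above both controls and livers 137, 153 and 48 near the higher of them. Its log2 fold change was 1.38 ± 0.80 (SE, adjusted p = 0.331), 0.52 without control 45 and 3.01 without control 168.

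In the livers of set 2 no hepatocyte, macrophage, T cell, B cell, fibroblast, endothelial, ductal, endocrine, alveolar or neutrophil marker was called by edgeR, and at an unadjusted p under 0.05 there were 5 hepatocyte, 5 neutrophil, 3 ductal, 2 alveolar, 1 fibroblast and 1 endothelial genes. Of the acinar list 1 gene fell and of the adipocyte list 1 rose, Plin4. Acinar markers summed to 282 and 561 TPM in A3B livers 44 and 153, to 6.8 to 19.3 TPM in the other 4 and to 79.4 and 121 TPM in the controls, and endocrine markers to 7.53 and 6.48 TPM in livers 44 and 153 and at most 0.735 TPM elsewhere in these livers. Neutrophil markers nevertheless summed to 128 TPM in A3B liver 49 and 53.2 TPM in liver 125, and to 7.67 to 18.1 TPM in the other 4, against 6.96 and 4.11 TPM in the controls. Adipocyte markers summed to 297 and 239 TPM in A3B livers 49 and 44, to 64.4 to 121 TPM in the other 4 and to 33.9 and 21.7 TPM in the controls. Liver 49 also had the highest macrophage and ductal sums of the 6, 1030 and 1185 TPM, and the lowest hepatocyte sum. Liver 48 had the lowest macrophage, fibroblast and endothelial sums, 35.2, 32.6 and 31.2 TPM. Livers 49 and 44 were the highest for Fosl1 and livers 49 and 125 for Atf3, and the part of these markers in those levels was not tested.

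The livers of set 1 came from other mice. All 10 members again had a positive log2 fold change, with a median of 1.49 against 0.39 over all genes tested. In limma's test on log2(TPM + 1), 3 of 10 rose (Fosl2, Jun and Myc) and 0 fell, where 6.07% of 11507 genes were called higher. All 3 A3B livers lay above all 3 controls for 6 of 10 members (Fos, Fosl2, Jun, Junb, Atf3 and Myc), against 28.5% of all genes tested. Fold changes here are on the log2(TPM + 1) scale, which understates the change of low genes.

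Myc was at 7.27, 8.06 and 7.65 TPM in control livers 11, 91 and 92 and at 96.6, 127 and 57.5 TPM in A3B livers 23, 28 and 70. Every A3B liver lay far above the controls, which differed little from each other. The log2 fold change was 3.38 ± 0.36 (SE, limma, adjusted p = 0.0109). Fosl2 was at 3.86, 1.38 and 1.35 TPM in the controls and at 17.5, 39.1 and 16.8 TPM in the A3B livers, a log2 fold change of 2.97 ± 0.45 (SE, adjusted p = 0.022). The highest control was number 11, whose genotype label differs from its title. Jun was at 103, 57.9 and 47 TPM against 201, 400 and 440 TPM, a log2 fold change of 2.31 ± 0.44 (SE, adjusted p = 0.0339). The 3 calls did not survive the loss of control 91 or control 92, with adjusted p of 0.076 and 0.0732 for Myc, 0.115 and 0.118 for Fosl2 and 0.163 and 0.165 for Jun, while the fold changes stayed between 2.07 and 3.41. Over all genes, 1 was called higher and 0 lower without control 91, and 7 and 2 without control 92, against 699 and 214 with all samples. Without A3B liver 23, Myc alone remained, and without control 11, A3B liver 28 or A3B liver 70 all 3 remained.

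Liver 28 stood above the other A3B livers for 8 of 10 members. Fosl1 was listed at 0 TPM in all 3 controls and in A3B liver 70, at 0.024 TPM in A3B liver 23 and at 16.2 TPM in liver 28. Atf3 was at 0.915, 0.758 and 0.737 TPM in controls and 1.21, 15.6 and 2.81 TPM in A3B livers 23, 28 and 70, with a log2 fold change of 1.53 ± 0.68 (SE, limma, adjusted p = 0.168). Egr1 was at 44.2, 26.8 and 2.7 TPM in controls and 17.1, 109 and 11.3 TPM in A3B livers, overlapping widely. Fos was at 2.87, 6.29 and 4.62 TPM against 7.21, 44.2 and 30.5 TPM, a log2 fold change of 2.07 ± 0.63 (SE, adjusted p = 0.0778). Junb, Fosb and Jund had log2 fold changes of 1.46 ± 0.53, 0.80 ± 0.51 and 0.25 ± 0.32 (SE), and none passed. Liver 28 also held the highest neutrophil marker sum, 143 TPM against 51 and 14.3 TPM in A3B livers 23 and 70 and 10.9 to 23.9 TPM in controls. Its ductal sum was 2903 TPM against 899 and 686 TPM in A3B livers 23 and 70, and its hepatocyte sum was the lowest, 6294 TPM against 8954 and 9122 TPM. Control livers held 10146 to 11418 TPM of the hepatocyte list. Adipocyte markers summed to 689 to 818 TPM in A3B livers and 30.4 to 31.3 TPM in controls, with no overlap. Of that list Lep, Cfd and Lipe were at 0 in every A3B and control liver of set 1, and the 2 genes called were Cidec and Plin4. Of the marker lists 2 of 4 adipocyte genes and 1 of 5 alveolar genes rose, 1 of 1 acinar gene fell, and the others had 0 called by limma. The part of these markers was not tested.

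**Figure D3:**
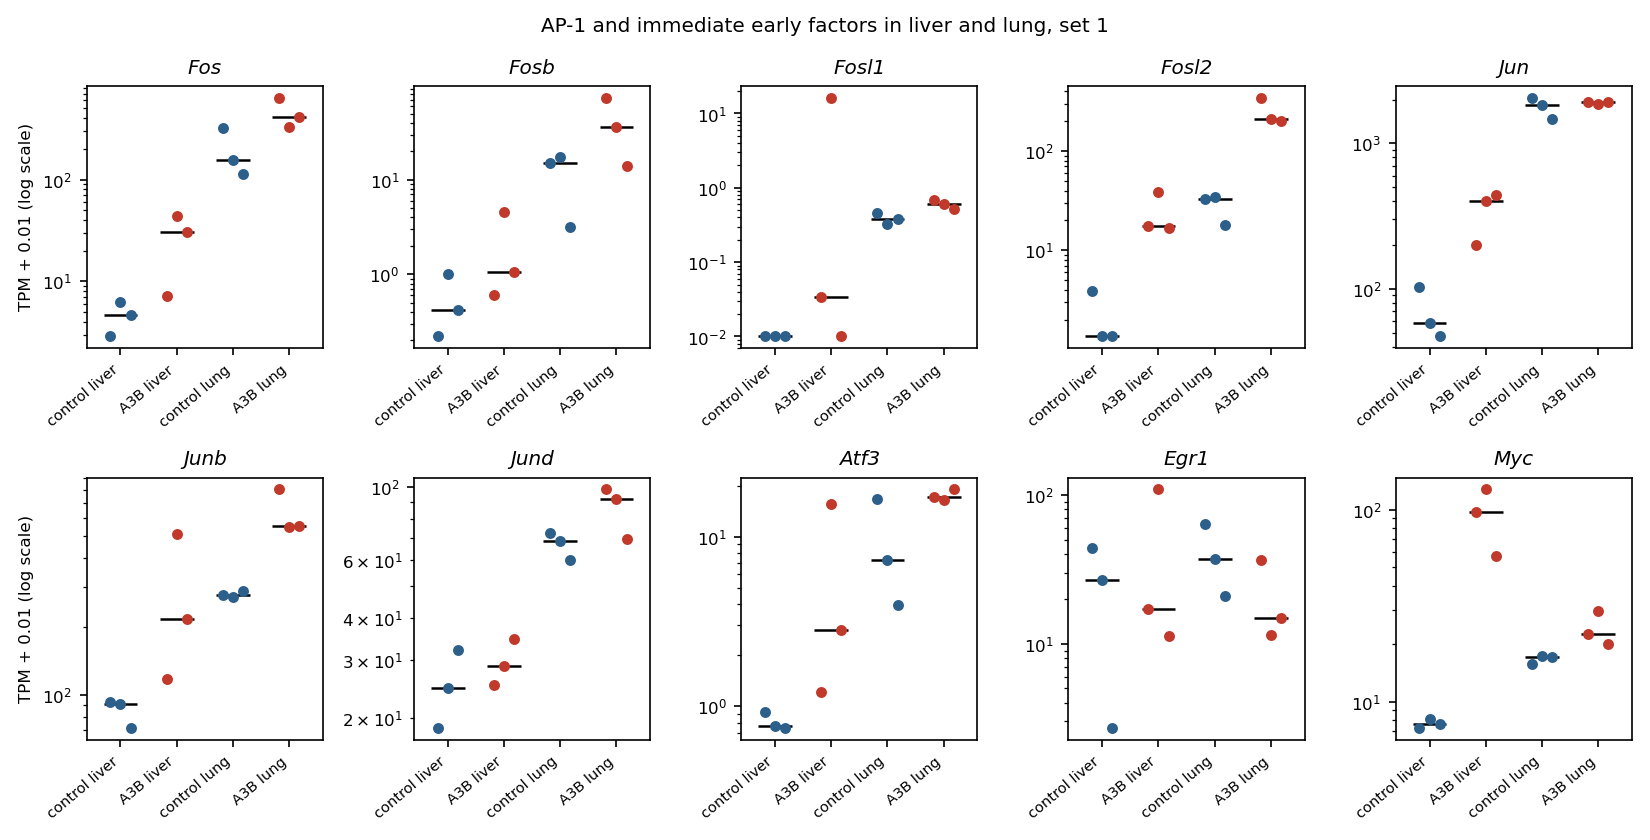
TPM + 0.01 on a log axis for each member in each sample of set 1; points are mice (blue, control; red, A3B) and bars are group medians. Myc separates the livers most clearly and Fosl2 the lungs, while Egr1 overlaps in both tissues.

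Lungs of A3B and control mice were compared in the same way. Fosl1 was below the mean of 1 TPM needed for a test, with 0.504 to 0.666 TPM in A3B lungs and 0.314 to 0.449 TPM in controls, so 9 members were tested. Of these 3 rose (Fosl2, Junb and Myc) and 0 fell in limma's test, in a table where 16.1% of 13651 genes were called higher. All A3B lungs lay above all controls for 4 of 9 (Fos, Fosl2, Junb and Myc), against 23.3% of all genes tested. The median log2 fold change was 1.05 over the members tested and -0.06 over all genes.

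Fosl2 changed most in the lung. It was at 33.1, 34.8 and 17.8 TPM in controls 87, 88 and 91 and at 342, 212 and 199 TPM in A3B lungs 69, 70 and 74. The lowest A3B lung was far above the highest control. The log2 fold change was 3.10 ± 0.32 (SE, limma, adjusted p = 0.00301). Junb was at 276, 269 and 288 TPM against 805, 552 and 556 TPM, a log2 fold change of 1.18 ± 0.16 (SE, adjusted p = 0.00475). Both calls held whichever lung was left out. Myc was at 15.6, 17.3 and 17 TPM against 22.5, 29.5 and 19.9 TPM, a small rise of 0.49 ± 0.15 (SE, adjusted p = 0.044) that passed only without A3B lung 74 and had adjusted p of 0.0774 to 0.109 without any of the other 5 lungs.

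Jun, the most abundant member in lung, did not pass. It was at 2052, 1844 and 1477 TPM in controls and 1918, 1856 and 1923 TPM in A3B lungs, with a log2 fold change of 0.10 ± 0.14 (SE, limma, adjusted p = 0.601). Fos was at 322, 157 and 114 TPM against 634, 328 and 411 TPM, where the lowest A3B lung barely exceeded the highest control, at 1.29 ± 0.43 (SE, adjusted p = 0.0614). Fosb and Atf3 had log2 fold changes of 1.68 ± 0.84 and 1.05 ± 0.44 (SE, adjusted p = 0.173 and 0.112). Control 87, with the driver label, was the highest control for Fos, Atf3, Egr1, Jun and Jund. Without it Fos and Atf3 passed, at 1.71 and 1.53 with adjusted p of 0.0163 and 0.0111. Egr1 was the only member with a lower mean in A3B lungs, at 36.7, 11.4 and 14.8 TPM against 63.7, 37.2 and 20.8 TPM, and did not pass at -0.96 ± 0.57 (SE, adjusted p = 0.233). Jund was at 0.35 ± 0.15 (SE, adjusted p = 0.108). Macrophage markers in lung had 3 genes called higher and 1 lower, and summed to 1066 to 1196 TPM in A3B lungs and 1319 to 1411 TPM in controls. Neutrophil markers had 2 genes called higher, with sums of 99.4 to 199 TPM in controls and 176 to 535 TPM in A3B lungs, and of the endothelial markers 2 rose and 3 fell. In lung 1 fibroblast, 1 adipocyte and 1 endocrine gene also rose, 1 T cell and 1 alveolar gene fell, and the B cell, ductal, hepatocyte and acinar lists had 0 called by limma, with 1, 0, 1 and 0 genes at an unadjusted p under 0.05. All 9 hepatocyte genes tested had a positive log2 fold change. Their list summed to 851 and 686 TPM in A3B lungs 70 and 74 and 781 TPM in control 88, and to 32.4 to 72.4 TPM in the other lungs. The part of these cells was not tested.

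**Figure D4:**
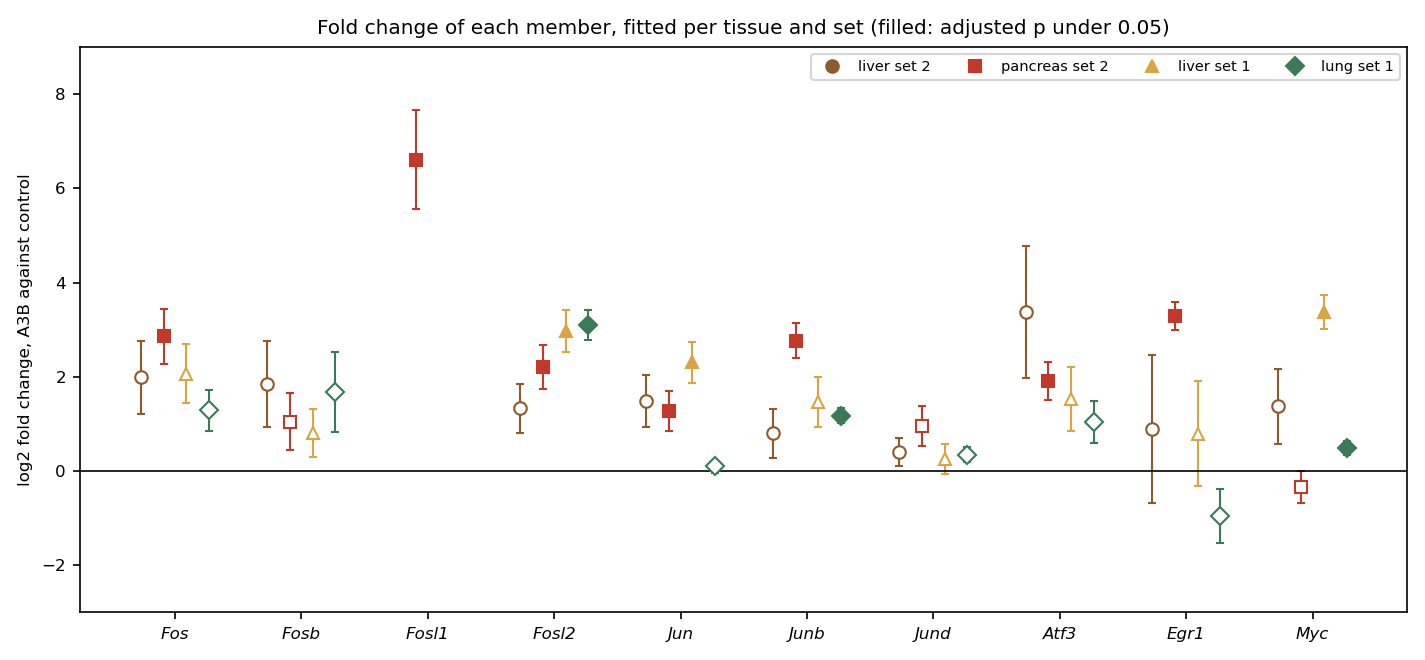
Log2 fold change of each member, A3B against control, in each tissue and set; bars are 1 SE and filled symbols have an adjusted p under 0.05. Fosl1 is drawn for the pancreas only, since it was not tested in lung and its liver controls were all at 0; Fosl2 is between 1.33 and 3.10 in all 4 comparisons.

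Whether the A3B effect differed between tissues was tested as an interaction. For pancreas minus liver in set 2, Junb was the 1 member of 10 called (2.13 ± 0.64, SE, edgeR, adjusted p = 0.0425), in a table where 6.87% of 19908 genes were called higher. With library totals alone 4 of 10 were called higher, as were 39.4% of all genes. Its log2 fold change was 2.77 in pancreas and 0.80 in liver in the separate fits. The call was lost without A3B liver 44 or 137, either control liver, A3B pancreas 44, 53, 125 or 137 or control pancreas 45, at adjusted p of 0.0559 to 0.194, while the difference stayed between 1.73 and 2.73. It was also lost with sex as a covariate (edgeR, adjusted p = 0.0524), read from Y-linked genes, by which mouse 44 differed between liver and pancreas. Egr1 differed by 2.56 ± 1.67 and Fos by 1.06 ± 0.89 (SE, adjusted p = 0.329 and 0.456). The Egr1 difference ran from 0.69 without control liver 45 (adjusted p = 0.898) to 4.36 without A3B liver 125 (adjusted p = 0.0189), the 1 of 16 omissions that passed. Myc and Atf3 had differences of -1.55 ± 0.89 and -1.30 ± 1.31 (SE, adjusted p = 0.263 and 0.54).

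For lung minus liver in set 1, Jun and Myc had a smaller effect in lung, 2 of 10 members, in a table where 8.81% of 13477 genes were called lower. The difference was -2.89 ± 0.38 for Myc and -2.21 ± 0.47 for Jun (SE, limma, adjusted p = 0.00344 and 0.0177). In the separate fits Myc changed by 3.38 in liver and 0.49 in lung, and Jun by 2.31 and 0.10. Control levels of both were higher in lung, far more so for Jun. Jun was at 1477 to 2052 TPM in control lungs and 47 to 103 TPM in control livers. Myc was at 15.6 to 17.3 TPM and 7.27 to 8.06 TPM. Centring all samples on a single median, which moved the median of all genes from -0.39 to 0.10, kept both calls, at -2.41 and -1.73. The Jun call was lost without control liver 92 (adjusted p = 0.0506), and the Myc call held without any single sample. Fosl2 rose in both tissues, and its difference was 0.13 ± 0.59 (SE, adjusted p = 0.897).

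The make-up of each family within a sample does not depend on library scaling, and is given as shares of summed TPM with no test. Junb took 44% to 55.9% of Jun family TPM in A3B pancreases and 12.4% and 47.2% in controls. In lungs Jun took 81% to 85.5% in controls and 68% to 75.4% in A3B mice, and Junb 11.5% to 15.8% and 21.8% to 28.5%, with no overlap. Jund took 41.2% and 41.7% in control livers of set 2 and 19.6% to 40.9% in A3B livers, and 8.71% to 21.4% against 3.05% to 7.35% in set 1. In the Fos family, Fosl2 went from 8.93% to 16.6% in control lungs to 31.8% to 36.8% in A3B lungs, and Fos from 74.9% to 86.9% down to 56.9% to 65.9%. Fosl1 reached 38.1% of Fos family TPM in A3B liver 49.

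**Figure D5:**
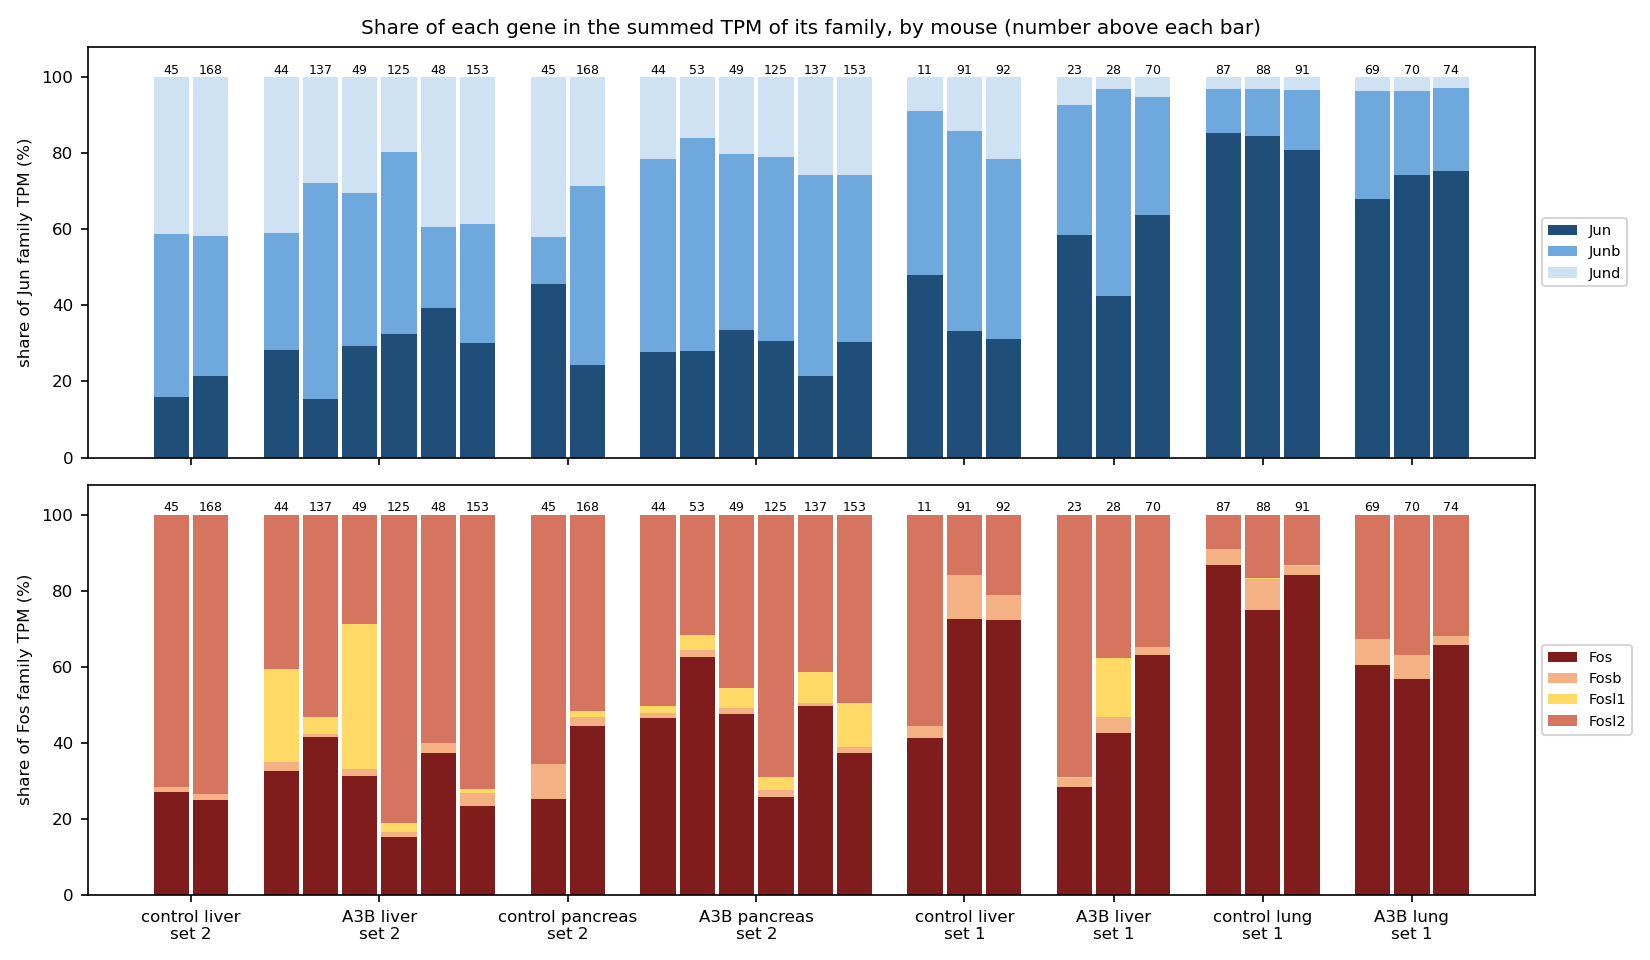
Share of summed TPM taken by each gene of the Jun family (top) and the Fos family (bottom) in each sample, 1 bar per mouse with its number above. In lung the A3B bars hold more Junb and Fosl2 and less Jun and Fos than every control bar.

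At transcript level in set 2, single isoforms held most counts of Fosl1 (Fosl1-201, 95.5% in A3B livers and 93.6% in A3B pancreases), Atf3 (Atf3-201, 95.5% and 98.5%) and Egr1 (Egr1-202, 88.3% and 91.9%). The full-length Fosb transcript, Fosb-201, which encodes 338 residues, held 65.9% of Fosb counts in A3B pancreases. Fosb-206, whose coding sequence of 237 residues has the length of the truncated ΔFosB protein, held 9.46%, from 68.2 counts summed over 6 libraries. At these counts the shares cannot be compared between groups. For Myc, Myc-201 and Myc-205 had the same count in every sample, as when reads cannot be told apart and are divided evenly, so Myc was read at gene level only.

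The other genes of the pathway were read from fixed lists. Over all genes tested, 3250 were called higher and 2843 lower of 19123 in pancreas, 218 and 418 of 17365 in set 2 liver, 699 and 214 of 11507 in set 1 liver and 2191 and 2838 of 13651 in lung. Of 13 further leucine zipper partners, 5 rose and 1 fell in A3B pancreas, 0 were called in set 2 liver (0 also at an unadjusted p under 0.05), 1 of 11 rose in set 1 liver, and 8 rose and 2 fell in lung. In pancreas Nfe2l2, the master regulator of antioxidant genes, rose by 1.58 ± 0.26 (SE, edgeR, adjusted p = 0.00149). Maff, a small Maf protein, rose in set 1 liver (3.27 ± 0.74, SE, limma, adjusted p = 0.0438) and in lung (2.78 ± 0.34, SE, adjusted p = 0.00436), where Mafg rose by 0.68 ± 0.09 (SE, adjusted p = 0.00491). In set 2 liver Nfe2l2 had the smallest p, at 0.66 ± 0.30 (SE, edgeR, adjusted p = 0.225).

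Of 30 further immediate early genes, 16 rose and 0 fell in pancreas, with a median of 1.15, led by Ier3, a survival factor, at 4.55 ± 0.35 and Btg2, an antiproliferative gene, at 2.98 ± 0.35 (SE, edgeR, adjusted p = 7.86e-05 and 0.000318). In set 2 liver 3 of 30 rose, among them Gadd45b, a stress kinase regulator, at 4.93 ± 0.94 and Rhob, a small GTPase, at 1.19 ± 0.26 (SE, adjusted p = 0.0261 and 0.0387). Gadd45b was at 1.17 and 1.61 TPM in control livers and 13.2 to 127 TPM in A3B livers. In set 1 liver 6 of 23 rose, led by Btg2 and Gadd45b at 3.84 ± 0.38 and 3.85 ± 0.50 (SE, limma, adjusted p = 0.0109 and 0.0152). In lung 12 of 30 rose and 3 fell, and the orphan receptors Nr4a2 and Nr4a3 had the smallest p, at 1.92 ± 0.19 and 3.15 ± 0.31 (SE, adjusted p = 0.00266 and 0.0029). Between tissues, Gadd45b changed less and Ier3 more in pancreas than in liver (-3.60 ± 0.90 and 3.12 ± 0.94, SE, edgeR, adjusted p = 0.0204 and 0.0426), and Btg2 changed less and Nr4a3 more in lung (-3.26 ± 0.44 and 2.86 ± 0.41, SE, limma, adjusted p = 0.00359 and 0.00384).

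Of 20 kinases and promoter factors upstream of the members, 8 rose and 0 fell in pancreas, among them Map2k4, which activates JNK, and Mrtfb, a coactivator of SRF, at 1.41 ± 0.21 and 1.17 ± 0.22 (SE, edgeR, adjusted p = 0.000891 and 0.00311). In set 2 liver 0 were called by edgeR and 5 had an unadjusted p under 0.05, with Elk1 at 1.25 ± 0.38 (SE, adjusted p = 0.0929). Elk4, which binds the serum response element with SRF, rose in set 1 liver (2.36 ± 0.50, SE, limma, adjusted p = 0.0397), as 1 of 19, and in lung (1.53 ± 0.10, SE, adjusted p = 0.0015), where 4 rose and 3 fell, Elk3 by -0.93 ± 0.17 (SE, adjusted p = 0.00858). Between tissues Mapk14 and Mapk3 differed in favour of pancreas by 1.07 ± 0.30 and 1.51 ± 0.44 (SE, edgeR, adjusted p = 0.0299 and 0.0359), and Elk1 by -0.87 ± 0.25 in lung minus liver (SE, limma, adjusted p = 0.049).

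Of 20 textbook AP-1 target genes, 10 of 19 tested rose and 1 fell in pancreas, where Tgfb1, a cytokine, rose by 1.98 ± 0.32 and Vegfa, an angiogenic factor, fell by 1.64 on the log2 scale (SE 0.25, edgeR, adjusted p = 0.00144 and 0.00107). In liver 0 of 18 were called in set 2 and 0 of 12 in set 1, where 4 and 2 had an unadjusted p under 0.05, with Plaur, the urokinase receptor, at 3.53 ± 1.21 (SE, adjusted p = 0.128) and Ccnd1 at -2.65 ± 0.84 (SE, limma, adjusted p = 0.0849). In lung 2 of 15 rose, Plaur by 1.83 ± 0.25 (SE, adjusted p = 0.00475), and 5 fell, Vegfa by 0.45 on the log2 scale (SE 0.09, adjusted p = 0.0101). Spp1, which encodes osteopontin and also stands in the ductal list, differed by 4.24 ± 0.97 and Vegfa by -1.50 ± 0.46 in pancreas minus liver (SE, edgeR, adjusted p = 0.0133 and 0.0441).

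Myc's partners and targets were read beside Myc. Its relative Mycn was lower in A3B livers of both sets, and in set 2 went from 0.198 and 2.41 TPM to between 0.013 and 0.153 TPM (log2 fold change -4.37 ± 0.87, SE, edgeR, adjusted p = 0.0292). In set 1 it was -2.55 ± 0.46 (SE, limma, adjusted p = 0.0302), from 2.95 to 12.4 TPM in controls to at most 0.283 TPM in A3B livers. Mlxipl, a glucose-responsive factor of the same network, was at -2.11 ± 0.48 in set 2 liver (SE, edgeR, adjusted p = 0.0436), and Mlxip rose in set 1 liver and lung by 1.48 ± 0.34 and 0.996 ± 0.10 (SE, limma, adjusted p = 0.0445 and 0.00278). In counts, 2 of 12 network genes fell in set 2 liver, 2 rose and 1 fell in pancreas, 2 rose and 1 fell in set 1 liver and 4 of 11 rose in lung, among them Mxd4, a Myc antagonist, at 0.74 ± 0.10 (SE, adjusted p = 0.00486). In pancreas Mga and Mnt, both repressive partners of Max, rose by 1.07 ± 0.25 and 1.55 ± 0.38 (SE, edgeR, adjusted p = 0.0084 and 0.0115).

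Of 20 growth genes with Myc sites, 1 rose in set 2 liver, namely Nop58, a nucleolar protein, from 14.8 and 16.8 TPM to between 46.9 and 91.8 TPM (1.68 ± 0.29, SE, edgeR, adjusted p = 0.0194). In set 1 liver 3 rose, among them Rrs1 and Nop58 at 1.68 ± 0.26 and 1.97 ± 0.32 (SE, limma, adjusted p = 0.0223 and 0.0231). In pancreas 1 rose, Ncl at 1.13 ± 0.27, and 5 fell, led by Odc1, the first enzyme of polyamine synthesis, at -2.31 ± 0.28 (SE, edgeR, adjusted p = 0.0104 and 0.000379). In lung 1 rose and 2 fell, Cdk4 at -0.66 ± 0.09 and Srm at -0.64 ± 0.13 (SE, limma, adjusted p = 0.00422 and 0.0128). Nop58 and Rrs1 changed less in lung than in liver, by -1.95 ± 0.30 and -1.54 ± 0.24 (SE, adjusted p = 0.00502 and 0.00536), and Max and Mlx by -1.08 ± 0.27 and -1.29 ± 0.30 (SE, adjusted p = 0.0304 and 0.023).

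Immediate early and heat shock genes can both be switched on while tissue is collected, so heat shock genes were read on the same samples. In set 2 liver 1 of 10 was called and it fell, Hspa1b, from 8.14 and 12.6 TPM to between 0.488 and 2.47 TPM (-3.12 ± 0.47, SE, edgeR, adjusted p = 0.01). The list's sum was nevertheless 2028 and 1883 TPM in A3B livers 49 and 44, 1010 to 1439 TPM in the other 4 and 823 and 1122 TPM in controls, and in set 1 it was 775 to 1315 TPM in A3B livers, highest in liver 28, and 614 to 711 TPM in controls. In set 1 liver 0 were called and 2 had an unadjusted p under 0.05, with Hsp90aa1 at 1.20 ± 0.38 (SE, limma, adjusted p = 0.0818). In pancreas 5 rose and 1 fell, where Hspb1 rose by 3.77 ± 0.52 and Hspe1 was at -1.68 ± 0.32 (SE, edgeR, adjusted p = 0.000691 and 0.00335), and the list's sum was 206 and 423 TPM in controls and 2020 to 2832 TPM in A3B mice. For pancreas minus liver 4 of 10 were called higher and 1 lower, against 6.87% of all genes called higher. Hspa1b differed by 4.49 ± 0.83 and Dnajb1 by 1.37 ± 0.35 (SE, edgeR, adjusted p = 0.0054 and 0.0218). In lung 4 rose and 1 fell, and Hspa1b and Bag3 rose by 0.82 ± 0.16 and 0.61 ± 0.15 (SE, limma, adjusted p = 0.0105 and 0.021). The time between death and freezing is not given in the sources used here, and its part in the members' levels was not tested.

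Genes whose pattern was most like that of 5 members were sought over the 16 samples of set 2, after centring log2 CPM on each tissue, among 14029 genes with a mean of at least 1 CPM. The correlations are a description, since the samples share libraries, conditions and depth. For Fos the most alike were Dpep2, Chil3 and Plaur (r = 0.95, 0.94 and 0.94), and for Jun Tdg, Rell1 and Slain2 (r = 0.92, 0.92 and 0.89). For Atf3 they were Dusp5, Sat1 and Rock2 (r = 0.92, 0.91 and 0.91), for Egr1 Cxadr, Arhgef7 and Rassf4 (r = 0.92, 0.91 and 0.90), and for Myc Gnl3, Abhd17b and Lmo4 (r = 0.88, 0.85 and 0.84). Dusp5 is an immediate early phosphatase, and Gnl3 and Plaur also stand in the Myc target and AP-1 target lists.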

How the data were processed

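Set 2 comprised 16 libraries and set 1 comprised 12. For set 2 the authors deposited, per transcript, the estimated counts and TPM that kallisto gave against mm10 transcripts. For set 1 the authors deposited TPM per gene from a read-count matrix made with GenomicAlignments and GenomicFeatures, after removal of duplicate reads. The study names STAR for the alignments behind its variant calls and does not tie an aligner to this table. GENCODE M21 assigned 116640 of 119414 transcripts to 35858 symbols. Counts were summed per gene, rounded, filtered with filterByExpr, TMM-scaled and tested with edgeR's robust quasi-likelihood F test. Set 1 was tested with limma (trend, robust) on log2(TPM + 1) for genes averaging 1 TPM or more, and 4 rows with repeated names were left out. P-values were Benjamini-Hochberg adjusted over all genes, with a threshold of 0.05. SE for edgeR was the log2 fold change divided by the square root of F. Replicates are separate mice.

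The members, lists and tests were chosen with earlier results of these data known. The text names all members, and of each list the 2 called genes with the smallest p, or the 1 with the smallest p where none was called; 1 such gene is not reported here. Marker lists are given as sums, and for 5 members the 3 most correlated genes are named. Alternatives were DESeq2, library totals, no filter, sex from Y-linked genes, limma on TPM, another pseudocount (0.1), centring, the replicate block and leaving out samples. By the numbers in the titles, liver and pancreas of a mouse number come from 1 animal. Their genotype labels differ for mice 44, 137, 45 and 168. For 4 of 5 A3B mice the deviations of liver and pancreas from the group means correlated at 0.143 to 0.367 over 14029 genes (mouse 49: -0.02). Scripts were tested on simulated data. Software was R 4.3.3, edgeR 4.0.16, limma 3.58.1, DESeq2 1.42.0, Python 3.11.15, pandas 2.3.3, scipy 1.17.1 and matplotlib 3.10.9.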

Additional observations from a re-analysis of the deposited data

Results flagged for a closer look

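The A3B effect on Junb was larger in pancreas than in liver by 2.13 on the log2 scale (edgeR's interaction test, adjusted p = 0.0425), with all 6 A3B pancreases above both controls and A3B livers overlapping theirs. It passed without 7 of 16 single samples and not with sex as a covariate (adjusted p = 0.0524). The A3B effect on Jun was smaller in lung than in liver, by -2.21 (limma's interaction test, adjusted p = 0.0177), and that on Myc by -2.89 (adjusted p = 0.00344). In liver all 3 A3B samples were above all 3 controls for both genes. No member had a single A3B liver or pancreas of set 2 far enough from the other 5 to pass Dixon's test on the log2 scale, at a critical value of 0.625. Groups of 2 or 3 were not tested in this way.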

How the results depend on the processing

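Of the counts of members called, that of set 2 liver was 3 with DESeq2 (5.27% of all genes) against 0. That of set 1 liver was 1 with no filter on low values (39 of 19179 genes called higher) and 0 to 3 without single samples (1 to 1362 genes). The count for pancreas minus liver was 4 with library totals (39.4% of all genes) and 0 with sex as a covariate (1169 of 19908 genes). Without single A3B samples it was 0 to 2 (1049 to 1989 genes). That of lung minus liver was 1 to 2 without single samples (455 to 2480 genes called lower). The pancreas count was 10 of 10 with library totals (70.5% of all genes) and 9 of 9 with limma on TPM (11401 of 13590 genes called higher). Without single A3B pancreases it was 6 to 7 (2814 to 3135 genes). The lung count was 2 with no filter (2151 of 19913 genes) and 2 to 4 without single samples (1384 to 2129 genes). With the mouse number as replicate block, 1 member (Junb) was called for pancreas minus liver and 2 (Jun and Myc) for lung minus liver, the same counts as without it. Over all genes the block gave 1130 higher of 19908 (1367 without it) and 2153 lower of 13477 (1187 without it).

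Signs turned for values that had not passed the test. For Myc in pancreas the log2 fold change was 1.99 with library totals and 1.83 with limma on TPM, and -0.72 to 0.19 without single samples. Centring gave -0.21 for Jund in set 1 liver. For pancreas minus liver, library totals gave 0.69 for Fosb, 1.87 for Jun and 0.12 for Myc, and Jun was 0.023 with no filter and 0.42 with the replicate block. For lung minus liver, Fosl2 was -0.33 with a pseudocount of 0.1, and centring gave 0.20 for Junb and 0.0029 for Atf3. Without single samples the ranges were -0.97 to 2.69 for Egr1 in set 2 liver, -0.29 to 1.52 for Egr1 in set 1 liver, -0.035 to 0.20 for Jun in lung, -1.09 to 0.18 for Fosb and -0.66 to 1.19 for Jun in pancreas minus liver, and -0.22 to 0.51 for Fosl2, -0.78 to 0.27 for Junb, -0.084 to 0.29 for Jund and -1.10 to 0.36 for Atf3 in lung minus liver. The causes were not tested. The sex covariate came from Y-linked genes, and mouse 44 was above the limit in liver and below it in pancreas. Livers 44 and 48 passed it with summed Y-linked levels of 1.66 and 4.09 TPM, and pancreas 44 had 0.244 TPM. The other samples above the limit had 13.7 to 67.8 TPM, so the covariate is uncertain for mice 44 and 48. With 2 controls per tissue in set 2, each control carries much of the result, and p-values measure the spread between these mice. Depth is unknown for set 1.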

Other observations

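Across A3B mice, the deviation of liver 49 from its group mean correlated with that of pancreas 53 at 0.40 over 14029 genes, and with that of its own pancreas at -0.02. The other 4 mice with both tissues had 0.143 to 0.367 with their own. Of the 31 pairs from different A3B mice, correlations ran from -0.195 to 0.402, and 3 others exceeded the lowest of those 4: liver 48 with pancreas 153 (0.254), liver 153 with pancreas 44 (0.217) and liver 48 with pancreas 49 (0.147). Whether labels 49 and 53 are as given was not tested.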
